A study of Arabidopsis thaliana with 16 samples.

Results

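The genes described here encode 9 proteins that protect *Arabidopsis* cells against cold and water loss: *LTI78* (AT5G52310, also called *RD29A*), *LEA7* (AT1G52690), *COR15A* (AT2G42540), *COR15B* (AT2G42530), *KIN1* (AT5G15960), *KIN2* (AT5G15970), *COR47* (AT1G20440), *ERD10* (AT1G20450) and *RAB18* (AT5G66400). They were chosen by name, with their measured ethylene responses in these data already known, so the values below describe them and no test was made on them. They lie in 8 of the 35814 loci of each deposited table, since *KIN1* and *KIN2* share a locus, and 31133 loci of each table were used.

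Roots and shoots for RNA sequencing came from etiolated seedlings, 3 days old, of Col-0, the wild type, and of *cbp20*, a mutant, in the Col background, of a subunit of the complex that binds the cap of nuclear RNA. All seedlings were grown in the dark in hydrocarbon-free air, at 24 °C by the labels, and then received the same air or air with 10 ppm ethylene for 4 h. Tissue, genotype and gas gave 8 groups of 2 libraries each. The deposited tables, 1 for each tissue and genotype, hold a single FPKM value (fragments scaled by transcript length and by mapped fragments) for each group, so no value below has an SD or a replicate check, and whether a difference exceeds the spread between libraries could not be tested. Each table was scaled on its own, which is why levels of different tables stand side by side, no ratio between tables is given, and any order of levels across tables rests on the authors' scaling.

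A gene was counted as past the fold when its FPKM differed at least 1.5-fold between ethylene and air, with at least 1 FPKM in either and neither listed at 0. The median log2 ratio of all loci compared lay between -0.01 and 0.02 in the 4 tables. *CBP20* (AT5G44200) itself was at 23.8 to 35.8 FPKM in the 4 Col-0 groups and at 0.509 to 2.14 FPKM in the 4 *cbp20* groups. All 6 ethylene response genes of a check list, among them *ARGOS*, *ERF1*, *ERS2* and *ETR2*, were past the fold upward in all 4 tables. Of the shoot markers *CAB1*, a light-harvesting protein, was at 65.5 FPKM in Col-0 roots and at 6192 FPKM in Col-0 shoots in air. *HEMA1*, of chlorophyll synthesis, was at 29.4 and 124 FPKM in the same groups. Of 7 root markers the root hair gene *COBL9* was at 16.7 and 1.22 FPKM there, the phosphate transporter gene *PHT1;1* at 120 and 11.5 FPKM, the endodermal gene *CASP1* at 638 and 183 FPKM, and *WOX5*, of the root stem cell niche, at 2.82 FPKM and 0. *RHD6* (8.98 and 6.08 FPKM) and *PYK10* (9079 and 8894 FPKM) lay closer together, and *NRT2.1* was listed at 0 in each. By the labels the root libraries all ran on lane 6, while each shoot group was divided between lanes 5 and 6, so lane and tissue are partly joined while air and ethylene share the same lanes.

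Plants make these proteins when cold, drought or salt draws water out of the cell. *COR47*, *ERD10* and *RAB18* are dehydrins, hydrophilic proteins that remain unstructured in water and shield membranes and enzymes; *LEA7*, *COR15A* and *COR15B* belong to other late embryogenesis abundant (LEA) families, and the COR15 proteins act in the chloroplast stroma. The genes are switched on along a pair of routes: in cold and drought CBF and DREB2 proteins bind the CRT/DRE element, and under abscisic acid ABF proteins bind the ABRE element. The ethylene transcription factor EIN3 is known to bind promoters of *CBF* genes in *Arabidopsis*.

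The promoter sequences of 6 of the genes are printed because they show the elements read by these routes and how unevenly these windows hold them. Each is the 250 bases before the gene start annotated by RefSeq on TAIR10.1, 5′ to 3′ on the strand of the gene. Capitals mark CCGAC, the core of the CRT/DRE element, and ACGTG, the core of the ABRE element, on either strand, so that GTCGG and CACGT are the same cores read from the other strand. *LTI78* (chr5:21240467-21240716, + strand) holds CCGAC 3 times, and *LEA7* (chr1:19619474-19619723, + strand) holds ABRE cores 5 times and CCGAC once. *COR15A* (chr2:17712331-17712580, - strand) holds both kinds, *KIN1* (chr5:5209467-5209716, + strand) and *KIN2* (chr5:5211469-5211718, + strand) hold 1 ABRE core each in a like stretch, and *ERD10* (chr1:7089607-7089856, - strand) holds neither.
LTI78: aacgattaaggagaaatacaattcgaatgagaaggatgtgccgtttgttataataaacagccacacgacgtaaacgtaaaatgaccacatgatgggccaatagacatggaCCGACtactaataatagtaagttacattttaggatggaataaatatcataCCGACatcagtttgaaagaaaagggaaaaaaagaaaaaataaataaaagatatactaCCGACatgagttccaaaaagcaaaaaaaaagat
LEA7: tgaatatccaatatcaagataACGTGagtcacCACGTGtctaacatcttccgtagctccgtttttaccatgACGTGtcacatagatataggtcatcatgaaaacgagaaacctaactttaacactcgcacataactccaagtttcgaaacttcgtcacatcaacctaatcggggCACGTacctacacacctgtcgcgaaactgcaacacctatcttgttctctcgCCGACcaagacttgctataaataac
COR15A: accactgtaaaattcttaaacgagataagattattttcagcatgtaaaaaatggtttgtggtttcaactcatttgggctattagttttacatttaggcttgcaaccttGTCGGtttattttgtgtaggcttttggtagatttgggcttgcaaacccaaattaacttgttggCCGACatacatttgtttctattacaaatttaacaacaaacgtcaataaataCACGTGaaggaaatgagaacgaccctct
KIN1: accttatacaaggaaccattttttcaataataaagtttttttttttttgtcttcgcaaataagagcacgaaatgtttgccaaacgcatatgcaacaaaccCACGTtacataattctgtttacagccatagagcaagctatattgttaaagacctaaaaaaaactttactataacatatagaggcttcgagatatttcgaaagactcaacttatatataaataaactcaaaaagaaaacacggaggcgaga
KIN2: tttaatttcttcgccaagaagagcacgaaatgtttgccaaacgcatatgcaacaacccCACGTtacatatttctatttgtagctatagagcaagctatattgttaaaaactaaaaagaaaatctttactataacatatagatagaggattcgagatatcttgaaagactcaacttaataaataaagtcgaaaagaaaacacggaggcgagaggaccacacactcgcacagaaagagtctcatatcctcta
ERD10: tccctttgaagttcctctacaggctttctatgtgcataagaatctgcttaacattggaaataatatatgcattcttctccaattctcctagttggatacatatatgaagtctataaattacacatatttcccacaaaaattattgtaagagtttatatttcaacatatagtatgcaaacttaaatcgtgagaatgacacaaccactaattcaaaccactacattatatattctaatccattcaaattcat

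Among all 9 promoter windows CCGAC was found in 3 (*LTI78*, *LEA7* and *COR15A*), against 11.97% of 27437 promoter windows of the same length in the genome. ACGTG was found in 5 (*LEA7*, *RAB18*, *COR15A*, *KIN1* and *KIN2*), against 22.9%, where a CACGTG counts once on each strand. The third motif searched, GCCGCC, the GCC box bound by ERF proteins, was found in none of the 9 and in 1.87% of all windows. *RAB18*, whose window overlaps a neighbouring gene and is not printed, held 3 ABRE cores. That neighbour reaches past the annotated start of *RAB18*, so 0 bases next to this start lie outside it. The *COR15B* window, also not printed, lies within the neighbouring gene *COR15A* but for 7 bases. The annotated starts differ from those of the deposited loci by 0 bases for *ERD10* and *COR15A*, 21 for *LEA7*, 132 for *LTI78*, 181 for *KIN1*, 205 for *RAB18*, 488 for *COR15B* and 1101 for *COR47*, so a lack of matches says only that the letters are not in that window.

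**Figure D1:**
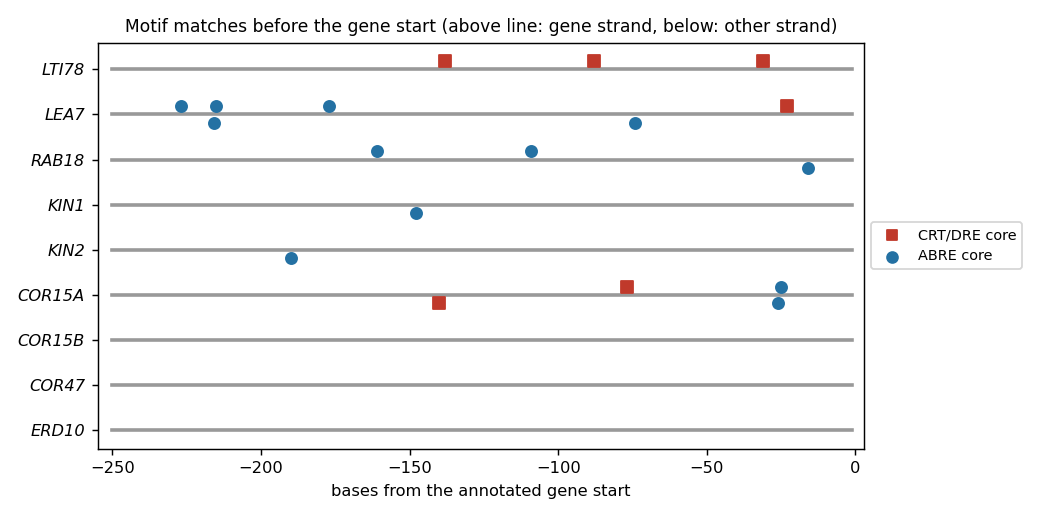
Positions of the CRT/DRE core CCGAC (squares) and the ABRE core ACGTG (circles) in the 250 bases before the annotated start of the 9 genes, on the gene's strand above each line and on the other strand below it. Within these windows *LTI78* held only CRT/DRE cores, *RAB18*, *KIN1* and *KIN2* only ABRE cores, *LEA7* and *COR15A* both, and *COR15B*, *COR47* and *ERD10* neither. The windows of *COR15B* and *RAB18* overlap neighbouring genes, and most windows do not end at the start of the deposited locus.

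Leaving aside the COR15 genes, 6 loci were at 28.3 FPKM or more in all 8 groups. *LTI78*, *LEA7*, *KIN1/KIN2* and *ERD10* had ratios above 1 in roots and below 1 in shoots of both genotypes. Of these ratios, those of *KIN1/KIN2* in roots, *ERD10* in shoots, and *LTI78* and *LEA7* in *cbp20* shoots were not past the fold. *COR47* had ratios above 1 in all 4 tables and *RAB18* ratios below 1 in roots and shoots of Col-0. In Col-0 roots 4 were past the fold upward (*LEA7*, *ERD10*, *COR47* and *LTI78*) and 1 downward (*RAB18*), and in Col-0 shoots none was past it upward and 4 downward (*KIN1/KIN2*, *LEA7*, *RAB18* and *LTI78*). In *cbp20* roots 4 were past the fold upward (*ERD10*, *LTI78*, *LEA7* and *COR47*) and none downward, and in *cbp20* shoots only *KIN1/KIN2* was past it, downward. In roots of Col-0 15.2% of all 17265 loci compared were past the fold upward and 15.0% downward, in shoots of Col-0 15.0% and 20.6%, in roots of *cbp20* 13.2% and 14.5%, and in shoots of *cbp20* 15.0% and 20.6%. The median log2 ratio of the 6 was 0.60 in Col-0 roots, -1.02 in Col-0 shoots, 0.95 in *cbp20* roots and -0.41 in *cbp20* shoots. These counts and medians come from the contrasts that were known when the genes were chosen, so nothing is read from their distance to the shares over all loci. In whole organs a change in the share of a cell type and a change in RNA per cell cannot be told apart. The tissue markers also moved: of 6 shoot markers 3 were past the fold downward in Col-0 roots (*CAB1* from 65.5 to 27.9 FPKM), 3 in Col-0 shoots, 1 in *cbp20* roots and 3 in *cbp20* shoots, and none upward. Their summed level went from 210 to 134 FPKM in Col-0 roots, 13585 to 11907 in Col-0 shoots, 454 to 528 in *cbp20* roots and 16586 to 17227 in *cbp20* shoots. Of the root markers *COBL9* was past the fold upward in both root tables, *PYK10* and *RHD6* downward in Col-0 shoots, and *WOX5* and *PHT1;1* downward in *cbp20* shoots. The summed level went from 9866 to 8381, 9096 to 5750, 5565 to 4591 and 7235 to 5226 FPKM in the same order. Most of each sum was *PYK10*, so the sums say little of the other root markers. In Col-0 roots *PYK10* went from 9079 to 7475 FPKM and *PHT1;1* from 120 to 85.8 FPKM, while *CASP1* went from 638 to 775 FPKM. These 3 had the same directions in *cbp20* roots, and none of them was past the fold in roots. The part of these markers in the values of the 6 loci was not tested. The COR15 genes were at or near 0 and are given at the end of the account of single genes.

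**Figure D2:**
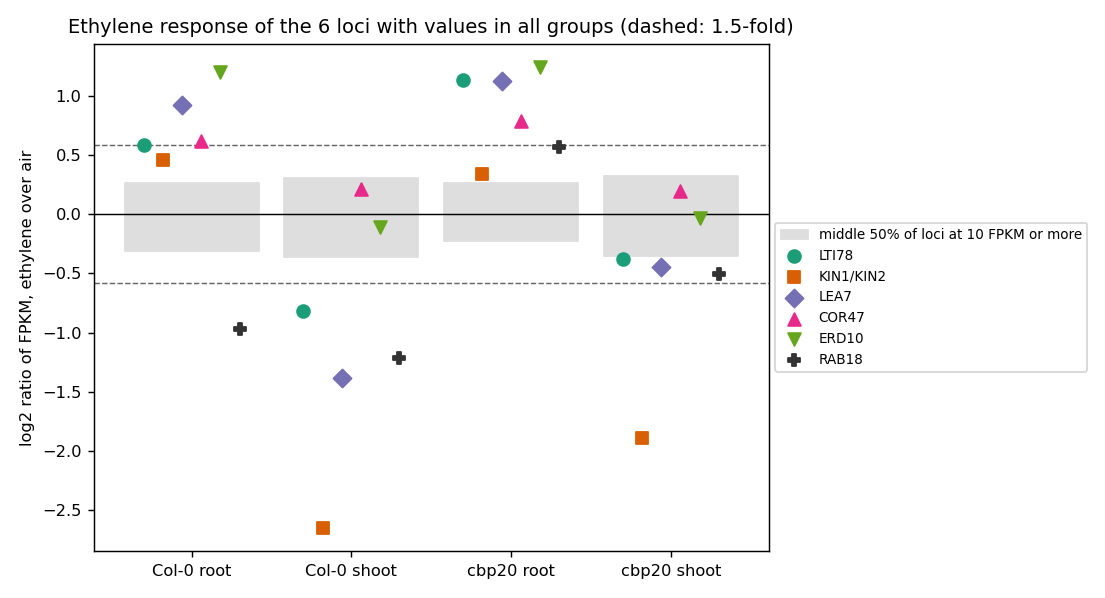
Log2 ratio of FPKM, ethylene over air, of the 6 loci in each of the 4 tables, with grey boxes for the middle 50% of all loci at 10 FPKM or more and dashed lines at 1.5-fold. In both genotypes *LTI78*, *LEA7*, *KIN1/KIN2* and *ERD10* lie above 0 in roots and below 0 in shoots. The shoot values of *ERD10* are near 0 (-0.11 in Col-0 and -0.03 in *cbp20*), and *RAB18* in Col-0 roots (-0.97) is the only root value below 0.

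*LEA7*, a soluble LEA protein outside the dehydrin family, lies at chr1:19619745-19623461 in the TAIR10 coordinates of the tables, which list AT1G52695 at the same place, so that its value may hold or lack fragments of that gene. In Col-0 roots it went from 159 FPKM in air to 302 FPKM in ethylene (1.89-fold higher), and in *cbp20* roots from 346 to 755 FPKM (2.18-fold higher). In Col-0 shoots it went from 180 to 69.3 FPKM (2.60-fold lower) and in *cbp20* shoots from 261 to 191 FPKM (1.36-fold lower, not past the fold). The ratios of *LEA7* thus had opposite directions in roots and shoots of both genotypes, past the fold in 3 of the 4 tables.

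*ERD10* (chr1:7088003-7089606), an acidic dehydrin first found as an early response to dehydration, had the largest upward ratio of the 6 loci in roots of either genotype. It went from 127 to 292 FPKM in roots of Col-0 (2.29-fold higher), and from 186 to 440 in those of *cbp20* (2.36-fold higher), a ratio above that of 96.6% and 97.1% of the loci at 10 FPKM or more. In shoots neither genotype was past the fold, with values that went from 246 to 228 FPKM (Col-0) and from 247 to 242 FPKM (*cbp20*).

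*COR47* (chr1:7084409-7085772), another acidic dehydrin and the neighbour of *ERD10*, was the most abundant of the 9 genes in every group. Its level went from 1022 to 1565 FPKM in roots of Col-0 (1.53-fold higher), and from 957 to 1649 in those of *cbp20* (1.72-fold higher). In shoots the values were 1264 and 1462 FPKM in Col-0 and 730 and 835 FPKM in *cbp20*, neither past the fold. *COR47* was the only one of the 6 with a ratio above 1 in all 4 tables. The coding sequences of *COR47* and *ERD10* were identical at 82.3% of aligned bases and at 73.5% of the whole alignment.

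*LTI78* (chr5:21240849-21243613), the gene in which the CRT/DRE element was first described, went from 47.2 to 70.8 FPKM in roots of Col-0, and from 72.1 to 158 in those of *cbp20* (2.195-fold higher). The Col-0 root ratio of 1.501 lay just inside the minimum. In Col-0 shoots *LTI78* went from 225 to 128 FPKM (1.76-fold lower) and in *cbp20* shoots from 154 to 119 FPKM (1.30-fold lower, not past the fold). The directions of *LTI78* were thus opposite in roots and shoots of both genotypes, as for *LEA7*. Its neighbour *LTI65* (AT5G52300, also called *RD29B*), an ABRE-driven gene, went from 115 to 33.4 FPKM in shoots of Col-0, and from 104 to 39.9 in those of *cbp20*, and was not past the fold in roots (51.7 and 63.3 FPKM in Col-0, 95.7 and 125 FPKM in *cbp20*).

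*KIN1* and *KIN2*, tandem genes for small proteins likened to fish antifreeze proteins, were counted as a single locus (chr5:5209898-5212670). Their coding sequences were identical at 191 of 201 bases (95.02%), and the fragments of these genes cannot be told apart in the tables. In Col-0 shoots the locus was at 799 FPKM in air, against 127 FPKM in ethylene (6.27-fold lower). In *cbp20* shoots it went from 180 to 48.5 FPKM (3.71-fold lower). These were the largest ratios of any of the 6 loci, lower than those of 98.7% and 98.2% of the loci at 10 FPKM or more. In roots it went from 67.3 to 92.3 FPKM (Col-0) and from 116 to 147 FPKM (*cbp20*), neither past the fold.

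*RAB18* (chr5:26518277-26519242), a dehydrin known for its response to abscisic acid, was the only one of the 6 whose root values went in opposite directions in the genotypes. It went from 76.9 to 39.3 FPKM in roots of Col-0 (1.96-fold lower), and from 116 to 172 in those of *cbp20* (1.48-fold higher, just outside the minimum). In shoots it went from 65.9 to 28.3 FPKM in Col-0 (2.33-fold lower) and from 129 to 90.9 FPKM in *cbp20* (1.42-fold lower, not past the fold). As listed, the 4 *cbp20* levels were 90.9 to 172 FPKM and the 4 Col-0 levels 28.3 to 76.9 FPKM, side by side from tables scaled separately.

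*COR15A* (chr2:17711032-17712330) and *COR15B* (chr2:17709036-17709945) lie in tandem, and their coding sequences were identical at 83.8% of aligned bases. *COR15A* was listed at 0 in 7 of the 8 groups and at 1.85 FPKM in Col-0 shoots in air. *COR15B* was listed at 0 in 5 groups, at 1.47 FPKM in Col-0 shoots in air, and at 0.276 and 0.193 FPKM in *cbp20* shoots in air and ethylene. No fold is given for the COR15 genes, since nearly all values were at or under 1 FPKM, where a value of 0 may also be a failed estimate.

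**Figure D3:**
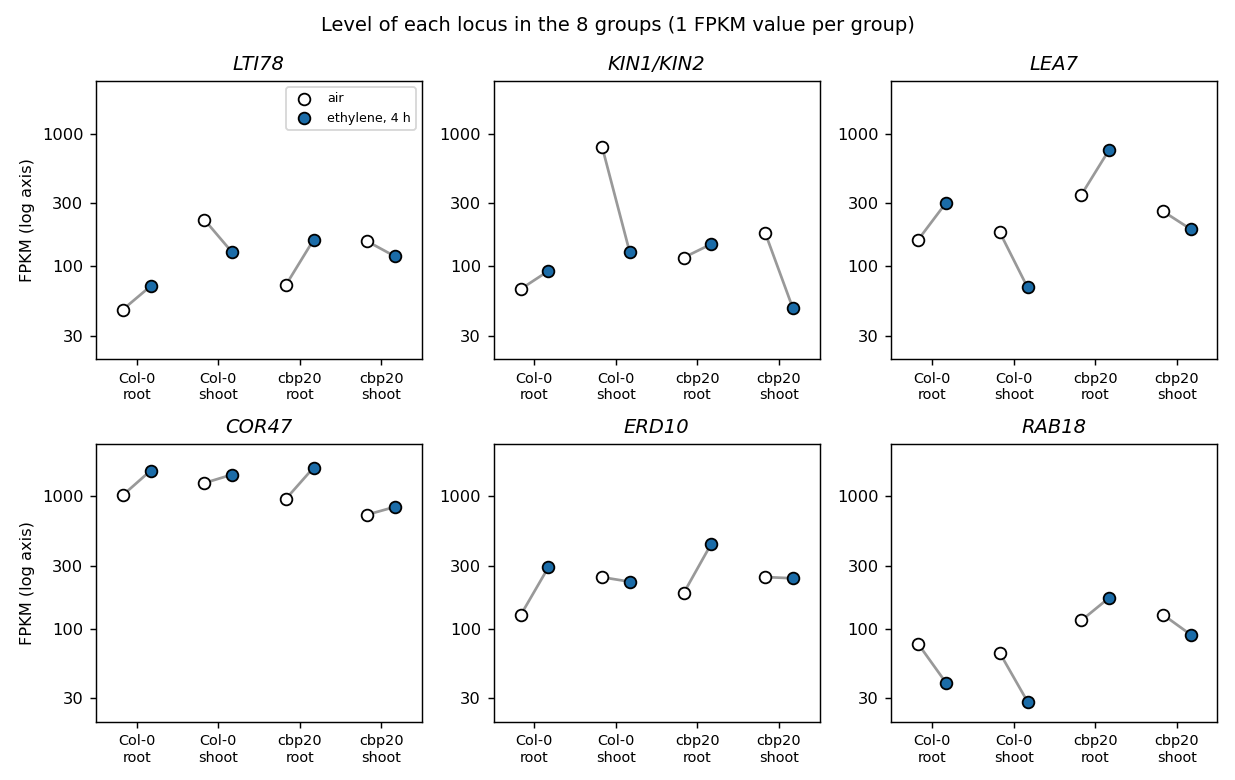
FPKM of the 6 loci in air (open circles) and ethylene (filled circles) for each tissue and genotype on a log axis, 1 value for each group of 2 libraries. *COR47* lies between 730 and 1649 FPKM, *KIN1/KIN2* is listed highest in Col-0 shoots in air (799 FPKM), and *LEA7* in *cbp20* roots in ethylene (755 FPKM).

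The levels of the 6 loci did not follow a common pattern over the 8 groups. Pearson's r of log2(FPKM + 1) ran from -0.41 between *COR47* and *RAB18* to 0.75 between *LEA7* and *RAB18*, with 0.70 between *LTI78* and *KIN1/KIN2*. These are descriptions over 8 group values that share genotypes and tissues and come from 4 tables scaled separately. The loci most like the mean of the 6, of 16340 compared, were AT5G06278 and AT4G24970 (r = 0.95 each), *RAB8* (0.92), AT1G22960 (0.91) and AT2G07676 (0.91). Of these only *RAB8*, a Rab GTPase, was abundant, at 78.8 to 102 FPKM, a narrow range.

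The regulators listed were more often past the fold downward than upward in all 4 tables, in roots as in shoots. The list holds other genes besides CBF and DREB genes, *ZAT12* among them. Of the 12 genes on a list of CBF and DREB regulators 11 could be compared in Col-0 roots, with 3 past the fold upward and 6 downward, and 11 in Col-0 shoots, with 1 upward and 5 downward. In *cbp20* roots none was upward and 5 of 10 downward, and in *cbp20* shoots none and 5 of 9. The medians of their log2 ratios were -0.66, -0.46, -0.60 and -0.63 in the same order. Over all loci compared 15.2% were past the fold upward and 15.0% downward in Col-0 roots, and 15.0% and 20.6% in Col-0 shoots. In *cbp20* the shares were 13.2% and 14.5% in roots and 15.0% and 20.6% in shoots. They stand beside the counts of this list and of those below. The lists were chosen with earlier results known, so nothing is read from the distance to these shares. In roots the regulators past the fold downward thus stood beside *LEA7*, *ERD10*, *COR47* and *LTI78*, which were past it upward. In Col-0 roots 3 regulators were also past it upward, *CBF4* among them. Whether the regulators act on these genes here was not tested.

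*CBF2* (AT4G25470), which encodes one of the cold-induced activators that bind the CRT/DRE element, went from 4.02 to 0.899 FPKM in roots of Col-0, from 17.6 to 0.892 FPKM in its shoots, from 2.43 to 0.462 FPKM in *cbp20* roots and from 9.38 to 5.29 FPKM in *cbp20* shoots. *CBF3* went from 9.42 FPKM in air to 0 in Col-0 shoots, from 1.96 FPKM in *cbp20* roots and 7.29 FPKM in *cbp20* shoots likewise to 0 as listed, and from 2.23 to 0.228 FPKM in Col-0 roots. *CBF1* exceeded 1 FPKM in Col-0 shoots only, with 3.57 FPKM in air against 1.28 FPKM in ethylene. *CBF4*, the family member known for its response to drought, differed from these: it was higher in ethylene in Col-0 roots (0.0753 and 1.28 FPKM) and Col-0 shoots (2.49 and 4.90 FPKM) and lower in *cbp20* roots (3.27 and 1.75 FPKM).

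*DREB2A* (AT5G05410), the drought and heat activator of the same element, was lower in ethylene in all 4 tables, from 23.0 to 6.61 FPKM in Col-0 roots, 49.7 to 3.22 FPKM in Col-0 shoots, 22.2 to 7.41 FPKM in *cbp20* roots and 18.3 to 1.83 FPKM in *cbp20* shoots. The zinc finger gene *ZAT12*, another early cold-response gene, was also lower in all 4, from 90.4 to 23.6, 44.9 to 10.098, 73.4 to 20.8 and 17.8 to 8.48 FPKM. Both genes were thus lower in roots and shoots alike, unlike *LTI78* and *LEA7*.

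The other dehydrins had medians of 0.17 in Col-0 roots, -0.47 in Col-0 shoots, 0.82 in *cbp20* roots and -0.53 in *cbp20* shoots, the same signs as the medians of the 6 loci. Their summed level was higher in ethylene in all 4 tables, in shoots too. It went from 4585 to 5389, 3475 to 3825, 5496 to 7490 and 3572 to 3649 FPKM in the same order. Most of these sums came from *ERD14* and *HIRD11*, neither of which was past the fold in shoots. Of 7 listed, 2 were past the fold upward and 1 downward of 6 compared in Col-0 roots, 1 and 3 of 6 in Col-0 shoots, 4 and 0 of 6 in *cbp20* roots, and 1 and 3 of 7 in *cbp20* shoots. *XERO2* (AT3G50970, also called *LTI30*), a cold-induced dehydrin, went from 325 to 655 FPKM in roots of Col-0, and from 338 to 735 in those of *cbp20*. In shoots *XERO2* went from 170 to 90.4 FPKM (Col-0) and from 138 to 96.0 FPKM (*cbp20*), the last not past the fold. AT4G38410, another dehydrin gene, was higher in ethylene in all 4 tables, from 1.16 to 9.42 FPKM in Col-0 roots, 2.29 to 7.54 FPKM in Col-0 shoots, 3.17 to 27.8 FPKM in *cbp20* roots and 3.83 to 11.2 FPKM in *cbp20* shoots. *XERO1* was lower in ethylene in shoots and higher in *cbp20* roots (17.9 and 34.2 FPKM). AT2G21490 was lower in Col-0 roots (4.55 and 0.408 FPKM), Col-0 shoots (4.75 and 1.78 FPKM) and *cbp20* shoots (8.03 and 1.73 FPKM). In *cbp20* roots it was not past the fold.

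The other LEA genes, most of them known from ripening seeds, were more often past the fold downward than upward in all 4 tables, least so in *cbp20* roots. Of 19 listed, 11 of 15 compared were past the fold downward in Col-0 roots, 14 of 16 in Col-0 shoots, 9 of 16 in *cbp20* roots and 14 of 16 in *cbp20* shoots. Upward there was 1 in Col-0 roots and 1 in *cbp20* shoots, in each case *SAG21*, a LEA gene of senescing leaves. Their summed level still went from 1678 to 2013 FPKM in Col-0 roots, where *SAG21* alone went from 860 to 1473 FPKM. Examples of lower genes were *M17*, from 12.3 to 2.19 FPKM in roots and 15.3 to 2.05 FPKM in shoots of Col-0, and *LEA4-1*, from 9.84 to 3.83 FPKM and 14.5 to 1.63 FPKM. The medians of the list were -1.37, -1.79, -0.77 and -1.39 in the order Col-0 root, Col-0 shoot, *cbp20* root and *cbp20* shoot, so *LEA7* was opposite in sign to them in roots and alike in shoots.

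Genes of seed storage and oil body proteins, which are known from ripening seeds like many LEA genes, were mostly past the fold downward in 3 of the 4 tables and not in *cbp20* roots. Over a list of 10, from *CRA1* (a cruciferin) to *OLEO2* (an oleosin), the summed level went from 166 to 55.2 FPKM in roots of Col-0, from 224 to 43.1 FPKM in its shoots, from 30.1 to 26.5 FPKM in *cbp20* roots and from 124 to 34.7 FPKM in *cbp20* shoots. In Col-0 shoots 10 of 10 were past the fold downward, in Col-0 roots 8 of 9, in *cbp20* shoots 5 of 7 and in *cbp20* roots 1 of 6, with 2 upward. The medians were -1.79 in Col-0 roots, -2.41 in Col-0 shoots, -0.27 in *cbp20* roots and -1.85 in *cbp20* shoots. In Col-0 shoots, where all 10 seed genes were past the fold downward, so were *RAB18*, *LEA7*, *LTI78* and *KIN1/KIN2*, and in *cbp20* shoots *KIN1/KIN2* alone. In Col-0 roots *RAB18* was past it downward with the seed genes, while *LEA7*, *LTI78*, *COR47* and *ERD10* were past it upward. The part of seed transcripts in the values of these genes was not tested.

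**Figure D4:**
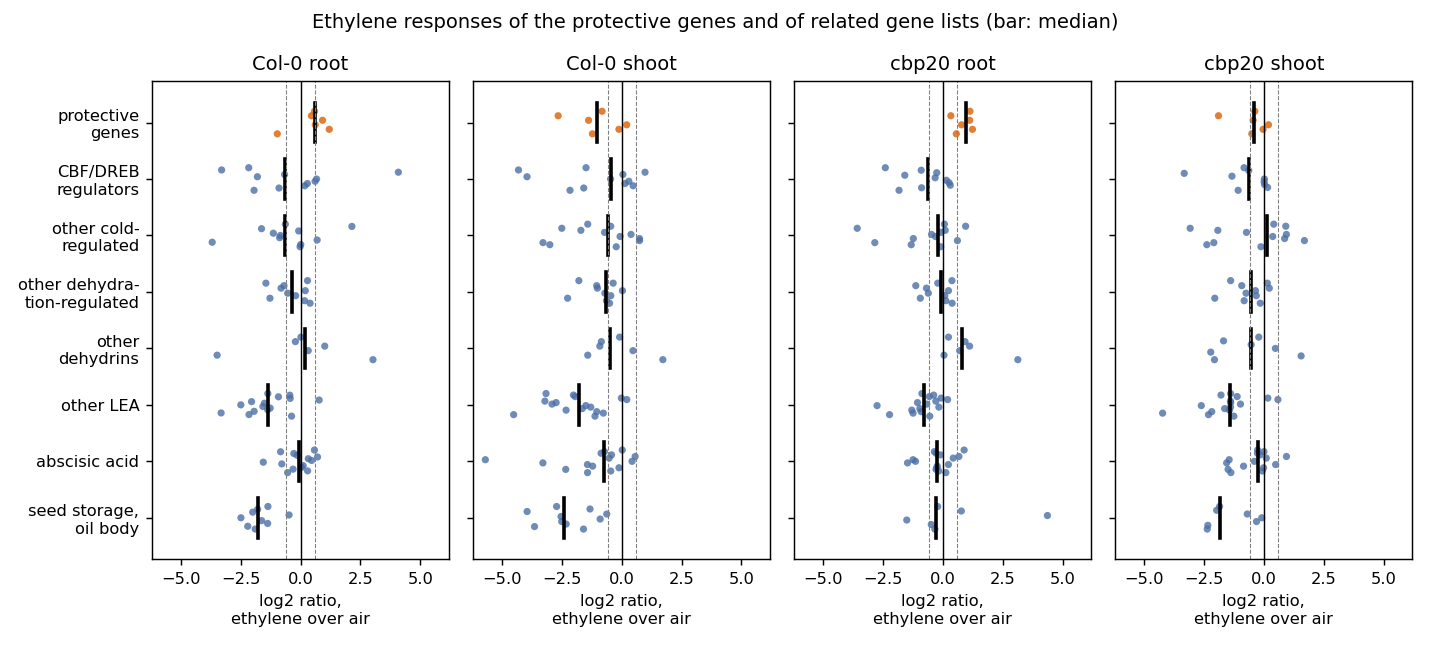
Log2 ratio of FPKM, ethylene over air, for the 6 loci (orange) and for 7 lists of related genes (blue), 1 point for each locus compared, with black bars at the medians and dashed lines at 1.5-fold. In roots the medians of the protective genes (0.60 and 0.95) and of the other dehydrins lie above 0, while those of the other LEA genes and of the CBF/DREB regulators lie below 0.

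Other cold-regulated genes went in both directions. More were past the fold downward than upward in all 4 tables, least so in *cbp20* shoots. Past the fold were 2 upward and 6 downward of 11 compared in Col-0 roots, 2 and 6 of 12 in Col-0 shoots, 2 and 4 of 12 in *cbp20* roots, and 4 and 5 of 12 in *cbp20* shoots. The medians were -0.63, -0.58, -0.19 and 0.12 in this order. *GOLS2*, which makes galactinol for raffinose sugars, was lower in all 4 tables, from 2.17 to 0.702 FPKM in roots and 11.6 to 2.06 FPKM in shoots of Col-0. *ELIP1*, a chloroplast protein that protects against light, was also lower in all 4, from 146 to 15.0 FPKM in shoots of Col-0, and from 180 to 42.4 in those of *cbp20*. *COR27*, a gene under the control of cold and the clock, was lower in roots and higher in shoots of both genotypes (11.4 and 19.0 FPKM in Col-0 shoots), the reverse of *LTI78* and *LEA7*. AT4G33980 was higher in all 4 tables, from 14.9 to 24.2 FPKM in roots of Col-0 and 3.78 to 12.2 FPKM in *cbp20* shoots.

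On a list of other dehydration-regulated genes, *LTI65* among them, none was past the fold upward. Of the 10 compared, the genes past it downward were 4 in Col-0 roots, 6 in Col-0 shoots, 4 in *cbp20* roots and 5 in *cbp20* shoots, with medians of -0.37, -0.67, -0.06 and -0.55. *P5CS1*, which makes the protective solute proline, went from 174 to 71.8 FPKM in Col-0 roots, 98.4 to 20.6 FPKM in Col-0 shoots, 199 to 104 FPKM in *cbp20* roots and 88.8 to 21.5 FPKM in *cbp20* shoots. *RD22*, a drought gene of the abscisic acid route, was lower in all 4 tables as well, from 88.9 to 55.1 FPKM in roots and 620 to 301 FPKM in shoots of Col-0.

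Among genes of abscisic acid signalling and turnover 1 was past the fold upward and 3 downward of 14 in Col-0 roots, none and 8 of 15 in Col-0 shoots, 2 and 3 of 15 in *cbp20* roots, and 1 and 5 of 15 in *cbp20* shoots, with medians of -0.05, -0.72, -0.23 and -0.26. The downward counts in roots lay near the shares over all loci, 15.0% in Col-0 and 14.5% in *cbp20*. *HAI1*, a phosphatase gene that responds strongly to abscisic acid, was lower in all 4 tables, from 63.0 to 21.5 FPKM in Col-0 roots, 33.7 to 3.46 FPKM in Col-0 shoots, 106 to 38.3 FPKM in *cbp20* roots and 22.7 to 7.73 FPKM in *cbp20* shoots. *ABI1* went the other way, past the fold upward in Col-0 roots (90.7 and 148 FPKM), *cbp20* roots (130 and 207 FPKM) and *cbp20* shoots (96.2 and 185 FPKM). *NCED3*, which encodes the limiting enzyme of abscisic acid synthesis under drought, was lower in shoots (14.8 and 2.93 FPKM in Col-0, 12.9 and 4.59 FPKM in *cbp20*) and not past the fold in roots (62.6 and 50.4 FPKM in Col-0, 81.7 and 67.4 FPKM in *cbp20*). In this *NCED3* was like *LTI65* and *KIN1/KIN2*, which were past the fold downward in shoots and not past it in roots.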

How the data were processed

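Reads had been aligned to TAIR10 with TopHat2 2.0.9 and compared by Cuffdiff 2.2.1, per the methods and the submitters' processing notes. The authors deposited 4 tables with 1 FPKM value for each group of 2 libraries. No source used here gives the depth of the libraries, which leaves the precision unknown. The tables also hold the authors' log2 fold change, p-value and status from Cuffdiff, which were not used. Of 35814 loci 1729 name no gene and 2952 carry a repeated name, and 31133 were kept, of which 1632 join several genes. Table starts count from 0 (26.1% of single-gene loci match RefSeq's start after adding 1, 0.445% before), and coordinates are printed counting from 1.

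Ratios were computed from FPKM, with the minima of 1.5-fold and 1 FPKM taken from the paper's methods (a figure legend there gives 2-fold and 0.1 FPKM, run as an alternative) and loci at 0 in either group left out of ratios. The genes and the 11 lists were chosen with earlier results of these data known. From each list, up to 4 genes past the fold in the most tables could be named, ties by the largest ratio, besides every *CBF* gene and the 5 loci most like the 6. *LTI65*, *SAG21*, *NRT2.1*, *CASP1*, *PYK10*, *OLEO2*, *ERD14* and *HIRD11* were named after their values were seen. Symbols came from RefSeq (TAIR10.1), which matched 29360 of 33989 names, and promoters from its table. The counting was tested on simulated data without noise, with loci changed exactly 2-fold, which checks the code and not how reliable a call is. Python 3.11.15, pandas 2.3.3, numpy 2.4.6, Biopython 1.88 and matplotlib 3.10.9 were used. Alternatives were other fold and FPKM minima, centred ratios, equal upper quartiles, FPKM + 1, and leaving out joined loci.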

Additional observations from a re-analysis of the deposited data

Results flagged for a closer look

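For 5 of the 6 loci the ethylene response had opposite signs in 2 groups and differed by at least 1 on the log2 scale, in 10 cases. None of these differences was tested, since each group has 1 value. The genes were chosen with these responses known, so nothing is read from their distance to the shares of loci given below. Root minus shoot in Col-0, the difference was 3.10 for *KIN1/KIN2*, 2.30 for *LEA7*, 1.40 for *LTI78* and 1.31 for *ERD10*. The same held for 7.02% of the 9111 loci at 10 FPKM or more in both tables. Root minus shoot in *cbp20*, it was 2.23 for *KIN1/KIN2*, 1.57 for *LEA7*, 1.51 for *LTI78*, 1.27 for *ERD10* and 1.07 for *RAB18*, against 5.91% of 9248 loci. The shoot responses of *ERD10* were near 0 (-0.11 in Col-0 and -0.03 in *cbp20*), so its opposite signs rest on small values. Other responses in these cases were also not past the fold. They were *KIN1/KIN2* in roots of both genotypes, *LTI78* and *LEA7* in *cbp20* shoots, and *RAB18* in *cbp20* roots and shoots.

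Between genotypes the single case was *RAB18* in roots, with 1.54 for *cbp20* minus Col-0, against 2.14% of 10024 loci.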

How the results depend on the processing

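With a 2-fold minimum the loci past the fold in Col-0 roots went from 5 to 1 (*ERD10*), and to 1 also with 2-fold and 0.1 FPKM, the minima in a figure legend of the paper. The median log2 ratio in Col-0 shoots was -1.02, and was -1.25 with FPKM + 1, which admits the COR15 genes, and -0.82 without the joined *KIN1/KIN2* locus. In *cbp20* roots it was 0.95, and 1.12 without that locus. Of 72 ratios of single loci under other scalings 71 kept their direction and side of the minimum, and *LTI78* in Col-0 roots with FPKM + 1 (0.58) no longer reached it. These scalings could move the ratios only slightly, so little is learned from that count. The largest shift from centring or equal quartiles was -0.031 on the log2 scale (Col-0 shoots), and the 6 loci were at 28.3 FPKM or more. With FPKM + 1 the loci past the fold were 6 in place of 4 in Col-0 shoots and 4 in place of 5 in Col-0 roots. Counting loci at 0 in a single group, an alternative added after seeing the data, also gave 6 in Col-0 shoots. No paired analysis was possible because each group has 1 value, and no library could be left out for the same reason.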
